A study of Mus musculus with 8 samples.

Results

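The 39 genes described here encode cyclins and their kinase, the proteins that license and copy DNA, the enzymes that supply its building blocks, and the motors, kinases and centromere proteins of mitosis. They were chosen by name from this function, and a probe was assigned to a gene through the RefSeq accession printed beside it. All 39 genes were found on the array, among 20972 genes that could be named, and they were read by 52 of its 55681 probes. Of the 39 genes, 36 had a signal well above background on 4 or more arrays and entered the test. The other 3, Ccne2 (cyclin E2), Aurkb (the kinase Aurora B) and Cenpf (a large kinetochore protein), had 1 probe each, which was not well above background on any of the 8 arrays. All 36 measured genes were well above background on all 4 control arrays, and 33 of them on all 8 arrays.

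Microarrays recorded the RNA of 4 control and 4 Senp2-aKO samples of iWAT, the inguinal white fat depot that lies under the skin. All mice, controls included, carried the genotype Senp2flox/flox, in which recombination sites flank Senp2, whose product is an enzyme that strips SUMO tags from proteins. Senp2-aKO mice carried Adipoq Cre in addition, a recombinase under the promoter of the adiponectin gene, which is active in fat cells, so that the other cells of the tissue keep Senp2. The mice of both groups were 8 weeks old at the start of a high-fat diet (58 kcal% fat), ate it for 12 weeks and were housed at 22 to 24 °C. The labels describe each sample as one from a mouse and do not say whether material was pooled, so that p-values measure the spread between these samples. The comparison asks how the loss of Senp2 in fat cells changes the transcripts of the whole tissue. In such bulk samples, fewer cells of a type and less RNA per cell cannot be told apart.

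A dividing cell passes from G1, in which D-type and E-type cyclins release the E2F transcription factors from the retinoblastoma protein, into S phase, in which the MCM helicase opens the DNA and the clamp PCNA holds the polymerases on it. In G2 and mitosis, cyclin A, cyclin B and their kinase CDK1, with the Aurora and Polo-like kinases, condense and separate the chromosomes. The ubiquitin ligase APC/C then ends mitosis by marking the cyclins for destruction. Mature fat cells rarely divide. White fat also holds progenitors, endothelium and macrophages, which can divide, and the inguinal pad surrounds a lymph node.

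Many of these genes share short promoter elements, and 5 promoters are shown because they carry the elements that recur in the set, or, for Tk1, none of them. The sequences are those of RefSeq for the build GRCm38.p6, each from 170 bases before to 30 bases after the annotated start, written 5′ to 3′ on the gene's strand. Capitals mark TTTGAA, the CHR element bound by the MuvB complexes in genes of G2 and mitosis, CCAAT, the box bound by NF-Y, and TTCCCGC or TTGGCGC, forms of the E2F site, each on either strand. The regions are chr2:164769759-164769958 (plus strand) for Ube2c, chr10:69352883-69353082 (minus strand) for Cdk1, chr4:118437314-118437513 (minus strand) for Cdc20, chr8:75109339-75109538 (plus strand) for Mcm5 and chr11:117825985-117826184 (minus strand) for Tk1.
Ube2c: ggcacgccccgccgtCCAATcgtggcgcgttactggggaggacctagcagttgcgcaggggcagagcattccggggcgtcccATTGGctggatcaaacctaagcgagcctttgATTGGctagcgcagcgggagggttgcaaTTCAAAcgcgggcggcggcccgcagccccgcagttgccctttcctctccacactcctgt
Cdk1: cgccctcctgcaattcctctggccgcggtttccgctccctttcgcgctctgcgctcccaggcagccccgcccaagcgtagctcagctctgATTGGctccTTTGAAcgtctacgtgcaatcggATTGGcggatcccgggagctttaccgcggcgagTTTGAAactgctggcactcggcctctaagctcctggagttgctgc
Cdc20: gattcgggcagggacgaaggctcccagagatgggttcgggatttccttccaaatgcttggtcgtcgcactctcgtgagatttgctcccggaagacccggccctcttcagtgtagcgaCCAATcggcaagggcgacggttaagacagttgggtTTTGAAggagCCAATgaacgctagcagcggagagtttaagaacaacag
Mcm5: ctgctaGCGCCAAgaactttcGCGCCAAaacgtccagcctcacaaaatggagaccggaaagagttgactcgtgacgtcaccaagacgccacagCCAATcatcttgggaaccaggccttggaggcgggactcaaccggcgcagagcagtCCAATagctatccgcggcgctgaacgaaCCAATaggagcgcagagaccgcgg
Tk1: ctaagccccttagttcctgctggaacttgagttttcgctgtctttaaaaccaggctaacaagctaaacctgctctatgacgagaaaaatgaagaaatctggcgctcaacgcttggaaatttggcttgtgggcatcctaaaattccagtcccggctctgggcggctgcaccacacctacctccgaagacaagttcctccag
In Cdk1 the CHR elements began at positions -71 and -15 from the start, and in Cdc20 and Ube2c at -18 and -29. The promoter table held 30 of the 39 genes, with 32 promoters, and the motifs were searched in 250 bases before to 50 after each start. A CHR element was in 14 of the 32 promoters (43.8%), against 17.9% of all 32851 promoters of that length. An E2F site was in 9 (28.1%, against 6.81%) and CCAAT in 25 (78.1%, against 37.4%). By gene, 13 of the 17 genes of S phase, G2 and mitosis held a CHR element, as did 1 of the 7 licensing and replication genes, Mcm2. E2F sites were in 5 of these 7, Mcm3, Mcm5, Mcm6, Mcm7 and Cdc6. Every gene with a CHR element also had a CCAAT box in the window. Of the 6 genes of G1 and nucleotide supply in the table, 4 (Ccne1, E2f1, Tk1 and Tyms) held none of these letters in the window. A match is a description of the letters, not evidence of binding.

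The tissue and 1 array need to be described first. All 10 adipocyte markers examined, Adipoq and Plin1 among them, were well above background on all 8 arrays. Senp2 itself stood at 82.8% of control (log2 fold change -0.27, SE 0.08, limma adjusted p = 0.0507), and its groups did not overlap. The array aKO 2 stood apart from the other Senp2-aKO arrays on the second principal component. Its B lymphocyte markers (8 of 10 measured) had a mean log2 level of 1.38, against -3.12 to -2.84 on the other Senp2-aKO arrays and -3.33 to -0.94 on controls, and their summed level was 51.3 times the array's 75th percentile, against at most 2.11 on the other Senp2-aKO arrays and 1.74 to 8.26 on controls. T lymphocyte markers (9 of 10 measured) had a mean of 2.51 on aKO 2, against -1.43 to -0.62 on the other Senp2-aKO arrays. Blk, Mef2b and Rgs13, genes of B cells and germinal centres, were above background on aKO 2 and on 0 of the 4 controls. Others of these lists were not, as Pax5 was above background on 2 controls and Mybl1 on no array. The mean of the 4 measured germinal centre markers was 1.49 on aKO 2, close to the 1.28 to 1.46 of the other Senp2-aKO arrays. Of these markers, Fas was lowest of the 8 arrays on aKO 2 (2.09). Skeletal muscle markers were higher on every Senp2-aKO array (means 3.76 to 5.30) than on any control (-1.53 to 1.97), and 10 of 12 rose. Adipose progenitor markers were also separated, with means of 3.27 to 3.50 against 2.79 to 3.09 on controls, and 3 of 10 rose and 1 fell. Mammary epithelium markers had means of -2.71 to -1.68 against -3.55 to -3.07, and 3 of 6 measured rose. The position on the slide cannot be told apart from the group, since each group filled a row of its own. The main results are therefore given with and without aKO 2, and the part of muscle, progenitors and mammary epithelium in the results was not tested.

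Most transcripts of cell division and DNA replication averaged below control in Senp2-aKO fat, by modest amounts, and few of them passed the test. The log2 fold change (Senp2-aKO minus control) was below 0 in 34 of 36 genes (94.4%), against 52.7% of all 14730 genes tested, and its median was -0.46, against -0.02 over all genes. Other scalings gave 33 genes below 0 (quantile normalisation) and 35 (the median in place of the 75th percentile), and another background correction, normexp, gave 30 with a median of -0.28. In limma 3 genes fell at a Benjamini-Hochberg adjusted p under 0.05, Ccnd1, Foxm1 and Ube2c, and 0 rose. These 3 are 8.33% of the genes measured, a share near the 7.12% of all genes that fell (7.29% rose). At an unadjusted p under 0.05, 15 of 36 (41.7%) were lower and 0 higher, against 17.6% and 14.7% of all genes. In 8 of 36 genes (22.2%) the groups did not overlap and Senp2-aKO was lower, against 15.1% of all genes, and in 0 it was higher, against 11.2%. The genes varied together from array to array, as described below, so that these counts are not of independent observations. The mean level of the 36 genes ranged from -0.42 to 0.12 on controls and from -0.91 to -0.27 on Senp2-aKO arrays, which overlap. Over all genes 1074 rose and 1049 fell, 50.6% of calls being higher, and with median scaling 772 rose and 1312 fell (37.0% higher).

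Without aKO 2 the groups did not overlap in more of the genes. The log2 fold change was below 0 in 33 of 36 genes, against 50.4% of all genes. In 19 of the 36 genes (52.8%) the 3 remaining Senp2-aKO arrays lay below all controls, against 18.5% of all genes, and in 0 did they lie above, against 16.1%. Here 7 genes fell (19.4%, against 9.99% of all genes) and 0 rose (against 9.21%). The 7 were Mcm2, Mcm5, Tk1, Mki67, Foxm1, Ube2c and Cenpe, and the median was -0.55. The omitted array was the highest Senp2-aKO array in 23 of the 36 genes, against 25.4% of all genes. Part of the excess over all genes therefore follows from which array was left out. With the B lymphocyte mean of each array as a covariate, 8 genes fell (22.2%, against 11.1%) and 0 rose (against 10.1%). That mean was 1.38 on aKO 2 and -3.33 to -0.94 on the other arrays. The covariate mostly marks aKO 2, and its fit is not independent of leaving that array out. With the macrophage mean as covariate 0 fell in limma, against 1.97% of all genes. The median was then -0.39, with 32 of 36 values below 0. Ccnd1, Foxm1 and Ube2c gave -0.46, -0.54 and -0.64, against -0.56, -0.60 and -0.85 without a covariate. At an unadjusted p under 0.05, 7 were lower with the macrophage covariate, and over all genes 461 rose and 290 fell. With no filter on background, which put 20915 genes to the test, only Ube2c of the 39 genes fell, against 3.29% of all genes. Without aKO 3 the same 3 genes fell as on all arrays, and 8.47% of all genes fell. Leaving out any other array lowered the counts over all genes too. Of the 36 genes 0 fell without control 1, control 3 or control 4, where 1.90%, 2.76% and 3.59% of all genes fell, and 1 fell without control 2, aKO 1 or aKO 4, where 3.36%, 4.11% and 3.60% of all genes fell.

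**Figure D1:**
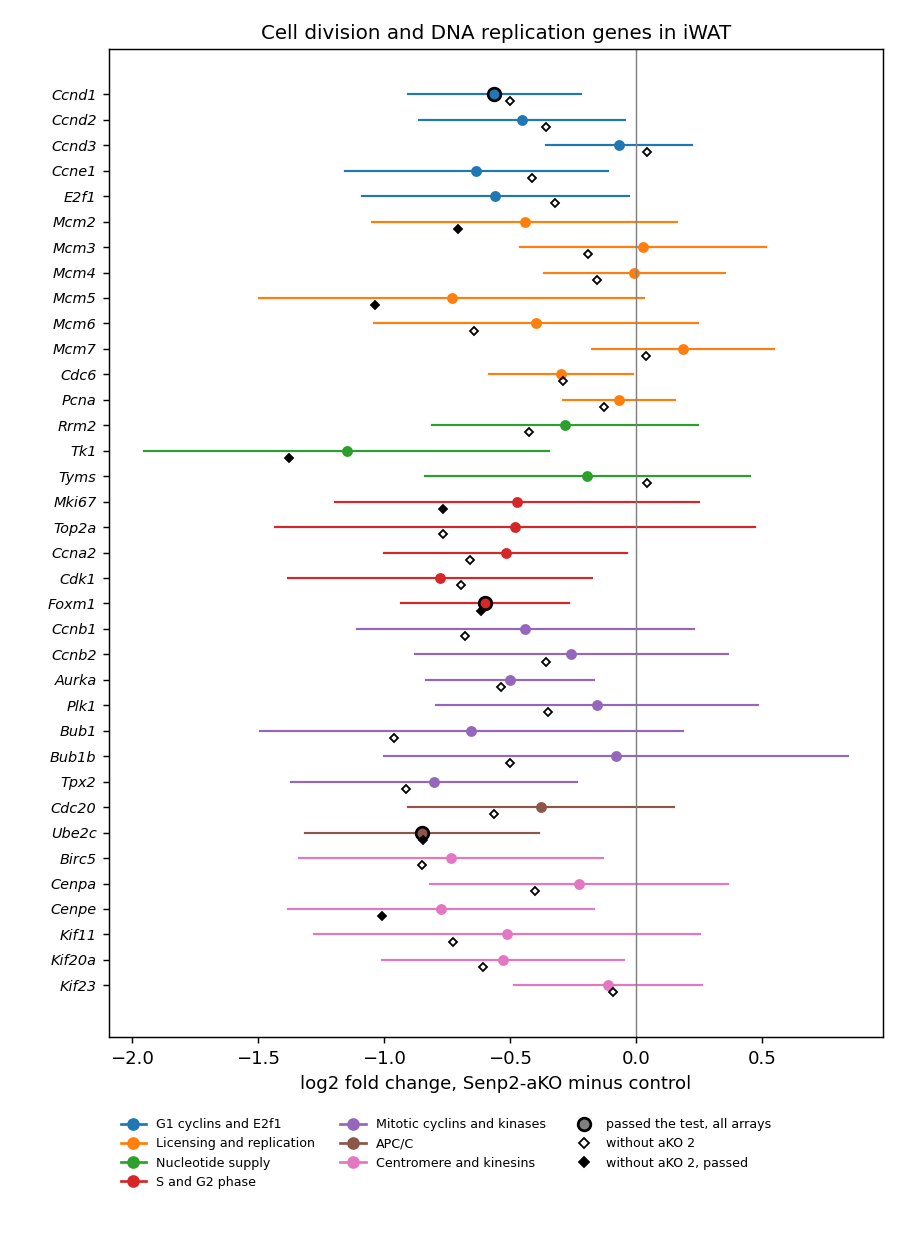
Log2 fold change (Senp2-aKO minus control) of the 36 measured genes, with 95% intervals from limma on 8 arrays, coloured by role; ringed circles passed the test, and diamonds are the values without aKO 2, filled where they passed. Circles lie below 0 for 34 genes (30 with normexp background correction), and the diamonds of most replication and mitosis genes lie further left than their circles.

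The D-type cyclins, which bind CDK4 and CDK6 and carry growth signals into the cycle, had fold changes with overlapping intervals, and 1 of the 3 passed. Ccnd1 (cyclin D1) had log2 levels of 2.02, 1.98, 2.33 and 2.12 on the control arrays 1 to 4 and of 1.67, 1.36, 1.87 and 1.31 on the Senp2-aKO arrays, relative to the 75th percentile of each array. The groups did not overlap, and aKO 4 and aKO 2 were the lowest. Ccnd1 fell to 67.7% of control (log2 fold change -0.56, SE 0.15, limma adjusted p = 0.0414). Only without aKO 3 did it still pass among the omissions of 1 array; the other 7 gave an adjusted p from 0.0599 to 0.107. Ccnd2 (cyclin D2) had control levels of 4.11, 3.49, 4.18 and 3.78 and Senp2-aKO levels of 3.43, 3.14, 3.56 and 3.61, with a slight overlap, and did not pass (-0.45, SE 0.18, adjusted p = 0.123; -0.26 with the macrophage covariate). Ccnd3 (cyclin D3) differed least of the 3, with a mean of 5.47 ± 0.07 on control arrays and 5.40 ± 0.23 on Senp2-aKO arrays (SD, n = 4 each). Its difference was -0.07 with a 95% interval of -0.36 to 0.22, and array weights turned it to 0.04.

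Ccne1 (cyclin E1, which with CDK2 fires the entry into S phase) and E2f1 (the activating E2F factor that drives Ccne1 and the replication genes) had similar profiles. Ccne1 stood at 1.40, 1.08, 1.57 and 1.15 on control arrays and at 0.76, 0.00, 0.90 and 0.99 on Senp2-aKO arrays. E2f1 stood at 1.23, 0.97, 1.38 and 1.07 on controls and at 0.70, -0.10, 0.89 and 0.93 on Senp2-aKO arrays. In both genes the groups did not overlap and aKO 2 was lowest by far. Neither passed (log2 fold changes -0.63, SE 0.23, limma adjusted p = 0.0976, and -0.56, SE 0.23, adjusted p = 0.137), and without aKO 2 the values were -0.41 and -0.32. With the mean of its 2 probes Ccne1 passed (-0.59, adjusted p = 0.0362), and its dimmer second probe gave -0.54 (SE 0.32). With array weights E2f1 gave -0.35. Ccnd2, Ccnd3, Ccne1 and E2f1 had their lowest value on aKO 2, the array on which 7 of the 8 licensing and replication genes had their highest Senp2-aKO value.

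The helicase subunits Mcm2 to Mcm7, which form 1 ring loaded on origins, did not pass on all arrays, and differences between the subunits were not tested. Mcm5 had levels of 0.09, -0.15, 0.52 and 0.03 on controls and of -1.28, 0.30, -0.43 and -1.04 on Senp2-aKO arrays. The array aKO 2 lay among the controls and the other 3 below all of them. The log2 fold change was -0.73 (SE 0.33, limma adjusted p = 0.170) on all arrays and -1.04 (SE 0.23, adjusted p = 0.0276) without aKO 2. Mcm2 stood at -1.18, -1.39, -0.87 and -1.21 on controls and at -2.07, -0.81, -1.82 and -1.71 on Senp2-aKO arrays, so that aKO 2 exceeded every control and its companions lay below them all. Mcm2 gave -0.44 (SE 0.26, limma adjusted p = 0.282; -0.24 with normexp) on all arrays and -0.71 (SE 0.15, adjusted p = 0.0219) without aKO 2. Mcm6 gave -0.40 (SE 0.28) on all arrays and -0.64 (SE 0.20, adjusted p = 0.0661) without aKO 2, and passed with array weights (-0.69, adjusted p = 0.0451).

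The other subunits had values nearer to 0. Mcm3 gave 0.03 (95% interval -0.46 to 0.51) and Mcm4 -0.01 (-0.36 to 0.35), signs that turned with the scaling (-0.07 for Mcm3 with the median, 0.02 for Mcm4 with quantile normalisation), and without aKO 2 they gave -0.19 and -0.16. Mcm7, whose probe read 2.18 to 2.29 on controls and 2.44, 2.87, 2.09 and 2.35 on Senp2-aKO arrays, was the gene with the highest fold change of the set (0.18, SE 0.16, adjusted p = 0.452). Pcna, the sliding clamp, averaged 3.23 ± 0.06 on control arrays and 3.16 ± 0.14 on Senp2-aKO arrays (SD, n = 4 each; difference -0.07, 95% interval -0.29 to 0.15). Cdc6, which loads the helicase on origins, was lower at an unadjusted p of 0.0423 (-0.30, SE 0.12, limma adjusted p = 0.140), and its dimmer second probe was above background on too few arrays to be tested.

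Among the enzymes of nucleotide supply, Tk1 (thymidine kinase, which recycles thymidine in S phase) had the lowest fold change of all 36 genes. Its levels were 0.01, -0.31, 0.77 and 0.19 on controls and -1.87, -0.30, -0.82 and -0.94 on Senp2-aKO arrays. Control 2 and aKO 2 had nearly the same level, and aKO 1, aKO 3 and aKO 4 were lower than every control. The mean was 2.22-fold lower (95% interval 1.27 to 3.86), short of the threshold (limma adjusted p = 0.0622), and without aKO 2 it passed (log2 fold change -1.38, SE 0.33, adjusted p = 0.0316). Rrm2, the regulated subunit of ribonucleotide reductase, gave -0.28 (SE 0.23) and Tyms, thymidylate synthase, -0.19 (SE 0.28). The Tyms value turned to 0.04 without aKO 2 and to 0.03 with normexp background correction.

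Of the genes of S phase and G2, Foxm1, the transcription factor that switches on the mitotic genes, was the only one to pass on all arrays. Its levels were -1.61, -1.75, -1.49 and -1.71 on controls and -2.63, -2.20, -2.02 and -2.11 on Senp2-aKO arrays. The groups were parted by a gap, and aKO 2 lay within its group. Foxm1 fell 1.52-fold (log2 fold change -0.60, 95% interval -0.93 to -0.27, limma adjusted p = 0.031) and also fell without aKO 2 (-0.61, SE 0.16, adjusted p = 0.0384). With normexp background correction its value was -0.31 (adjusted p = 0.0298). Leaving out aKO 4 or any of the controls ended the call (adjusted p from 0.0548 to 0.0856). A second probe of Foxm1 was above background on no array.

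Mki67, the Ki-67 protein used to stain cycling cells, had levels of 0.95, 0.84, 1.47 and 1.39 on controls and of 0.04, 1.57, 0.67 and 0.49 on Senp2-aKO arrays. The highest of all 8 values was that of aKO 2, while its 3 companions lay below every control. Mki67 gave -0.47 (SE 0.31, limma adjusted p = 0.335) on all arrays and -0.76 (SE 0.21, adjusted p = 0.0470) without aKO 2, and its second probe gave -0.41 on all arrays. In Cdk1, the kinase that starts mitosis, aKO 2 was not raised. The gene stood at -1.74, -1.70, -1.09 and -1.42 on controls and at -2.87, -2.51, -1.89 and -1.80 on Senp2-aKO arrays, so that the groups did not overlap and aKO 2 was among the low ones. The difference of -0.78 (SE 0.26) did not pass (adjusted p = 0.0841) and was -0.44 with normexp and -0.47 with the mean of probes. A dimmer second probe, above background on 5 of 8 arrays, gave -0.17. Ccna2 (cyclin A2) gave -0.52 (SE 0.21, adjusted p = 0.130) and Top2a, the topoisomerase that untangles replicated DNA, -0.48 (SE 0.41, adjusted p = 0.458; -0.085 with normexp).

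**Figure D2:**
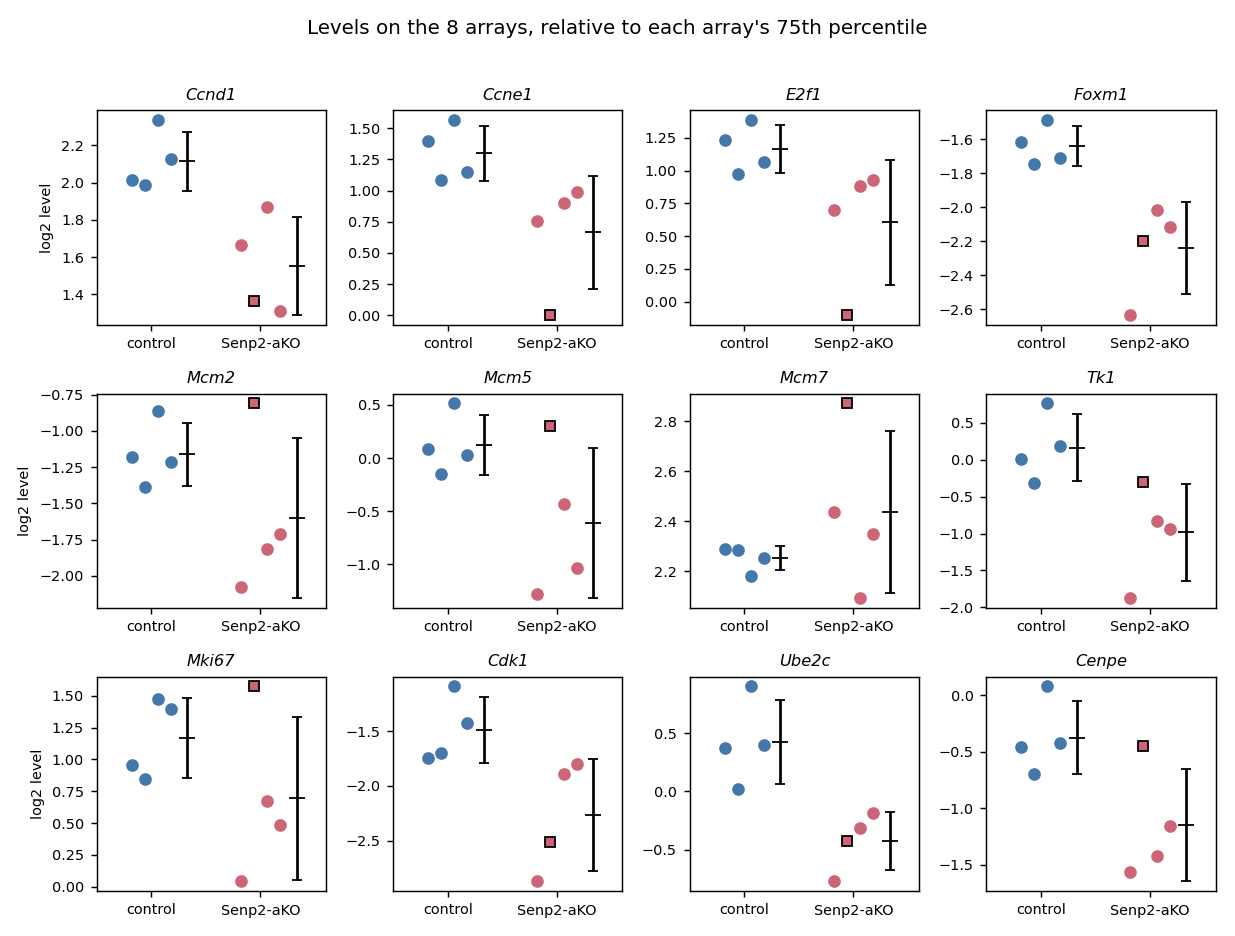
Log2 level of 12 genes on each of the 8 arrays, relative to the 75th percentile of the array, in control (blue) and Senp2-aKO (red) samples; the square is aKO 2, and bars are mean and SD of 4 arrays. The square is at or near the top of its group for Mcm2, Mcm5, Mcm7, Tk1, Mki67 and Cenpe and at the bottom for Ccne1 and E2f1.

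The cyclins B and the mitotic kinases had fold changes below 0 without a call. Ccnb1 (cyclin B1) gave -0.44 (SE 0.29; -0.22 with normexp) and Ccnb2 (cyclin B2) -0.26 (SE 0.27). Aurka (Aurora A, which matures the spindle poles) came nearest to the threshold, with controls at -0.53, -0.65, -0.16 and -0.42 and Senp2-aKO arrays at -1.20, -0.83, -1.02 and -0.72. The groups did not overlap (-0.50, SE 0.14, limma adjusted p = 0.0541), and the gene passed with quantile normalisation. Its activator Tpx2 was likewise below control on every Senp2-aKO array, at -2.18, -2.30, -1.32 and -1.58 in controls and -3.02, -2.32, -2.62 and -2.63 in Senp2-aKO samples (-0.80, SE 0.25, adjusted p = 0.0639; -0.33 with normexp). Plk1 (Polo-like kinase) gave -0.16 (SE 0.28), and Bub1 and Bub1b, which hold the spindle checkpoint, gave -0.65 (SE 0.37; -0.015 with normexp) and -0.08 (SE 0.40; 0.10 with normexp). For Bub1b aKO 2 stood furthest above the mean of its companions, by 1.68 on the log2 scale, and without that array its fold change was -0.50 (SE 0.19, adjusted p = 0.108).

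Ube2c, the ubiquitin-conjugating enzyme of the APC/C, fell 1.80-fold on all arrays (95% interval 1.31 to 2.48) at a limma adjusted p of 0.0297. Its levels were 0.37, 0.02, 0.90 and 0.40 on controls and -0.77, -0.43, -0.32 and -0.19 on Senp2-aKO arrays, with no overlap, and aKO 2 lay within its group. The second probe of Ube2c also passed (-0.90, SE 0.20, adjusted p = 0.0305 over all probes kept). Without aKO 2 the fold change was -0.85 (SE 0.23, adjusted p = 0.0435), and the call ended when control 1, control 3, control 4 or aKO 1 was left out (0.0593 to 0.0754). Cdc20, which brings substrates to the same ligase, did not pass (-0.38, SE 0.23, adjusted p = 0.290), and without aKO 2 it gave -0.56 (SE 0.18, adjusted p = 0.0717).

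Of the centromere proteins and kinesins, Cenpe, a motor that carries chromosomes to the spindle equator, had levels of -0.46, -0.70, 0.08 and -0.43 on controls and of -1.57, -0.45, -1.42 and -1.16 on Senp2-aKO arrays. Again aKO 2 alone lay among the controls. Cenpe gave -0.77 (SE 0.26, limma adjusted p = 0.0857) on all arrays and -1.01 (SE 0.19, adjusted p = 0.0184) without aKO 2. Birc5 (survivin, a subunit of the chromosomal passenger complex) gave -0.73 (SE 0.26, adjusted p = 0.0972), and its 2 other probes -0.84 and -0.92. Kif20a and Kif11, kinesins of cytokinesis and of the spindle, gave -0.53 (SE 0.21; -0.29 with normexp) and -0.51 (SE 0.33; 0.13 with normexp), Cenpa, the centromeric histone, -0.23 (SE 0.26), and Kif23, a kinesin of the midbody, -0.11 (SE 0.16; 0.08 with normexp).

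The genes varied together from array to array within each group. Control 3 was the highest control in 30 of the 36 genes and control 2 the lowest in 28, against 23.1% of all genes for either. Among Senp2-aKO arrays aKO 1 was the lowest in 24 genes, against 14.7% of all genes, and aKO 2 the highest in 23, against 25.4%. The mean log2 level over the 36 genes was -0.24, -0.42, 0.12 and -0.09 on controls and -0.91, -0.27, -0.58 and -0.58 on Senp2-aKO arrays. Control 3 was also the array with the highest mean of 11 macrophage markers (4.23, against 3.23 to 3.71 on the other controls and 3.29 to 3.41 on Senp2-aKO arrays), so that the range of means in controls spans that of Senp2-aKO arrays. The summed level of these markers ranged from 536 to 653 in controls and from 367 to 573 in Senp2-aKO samples, but 61.1% to 79.4% of it came from Lpl, lipoprotein lipase, which fat cells also express. Without Lpl, left out after its values were seen, the sum ranged from 118.9 to 200.7 in controls and from 131.6 to 156.6 in Senp2-aKO samples. In those 11 markers 0 passed, with 7 fold changes below 0 and 4 above. At an unadjusted limma p under 0.05, Trem2 (-1.71) and Itgax (-1.16) were lower and Cd14 (0.68) and Mrc1 (0.32) higher, differences that a list mean or sum does not show. The part of the 11 markers in the lower levels of the cell division genes was not tested beyond the covariate fit above.

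The array aKO 2 split the set. Its median log2 difference from the mean of the other Senp2-aKO arrays was -0.13 over all genes and 0.57 over the 36 genes. It was the highest Senp2-aKO array for Mcm2 to Mcm7, Pcna, Rrm2, Tk1, Mki67, Top2a and Ccna2, for 6 of the 7 mitotic cyclin and kinase genes (Aurka was in the middle), and for Cdc20, Birc5, Cenpa, Cenpe and Kif11. It was the lowest for Ccnd2, Ccnd3, Ccne1, E2f1 and Tyms, against 46.3% of all genes. Its lymphocyte markers, given above, were the highest of the 8 arrays, and their part in this split was not tested. For Foxm1 and Ube2c it lay in the middle of its group, and both fell with and without it.

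**Figure D3:**
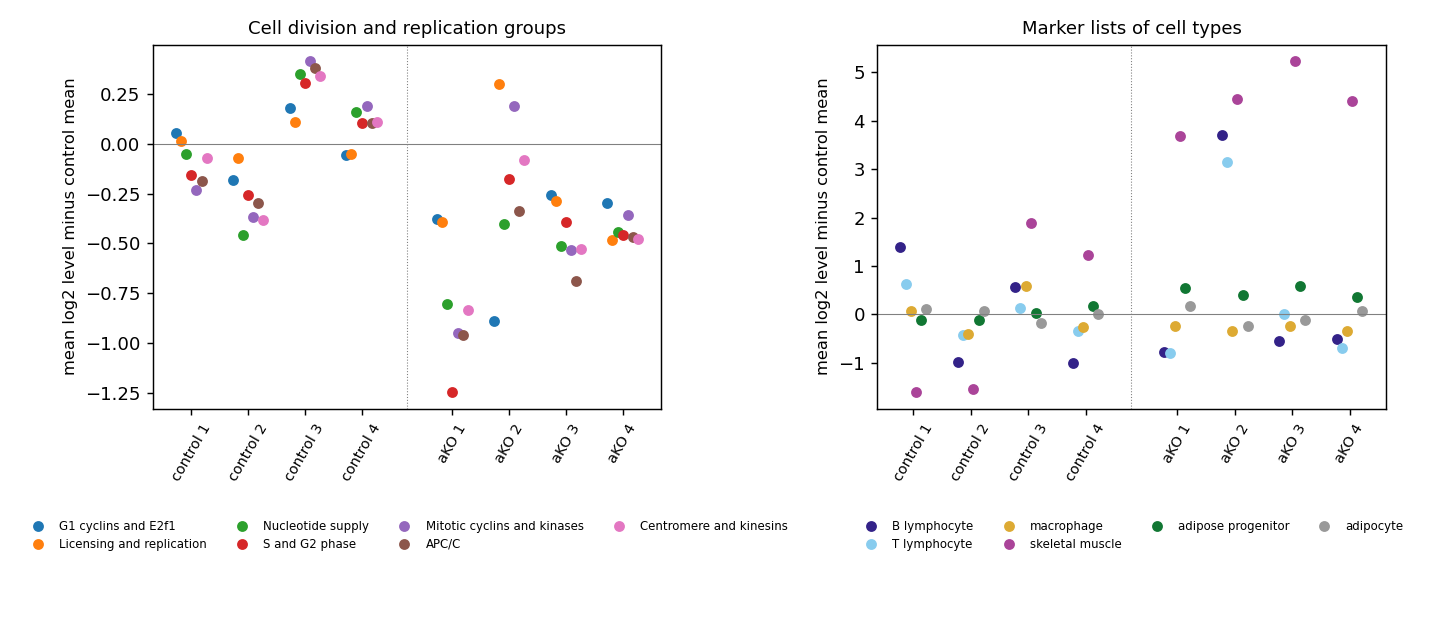
Mean log2 level of 7 groups of cell division genes (left) and of 6 marker lists (right) on each array, minus the mean of the 4 controls; each point is 1 array, and replicates have no order. On aKO 2 the lymphocyte lists lie far above the other arrays and the licensing group above all controls, while the G1 group is at its lowest, and skeletal muscle markers are high on all Senp2-aKO arrays.

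Other genes of the cycle, from a list of 119 of which 107 were measured, were lower more often than higher. This list was also drawn up with results of these arrays known. Of these, 15 fell and 5 rose (against 7.12% and 7.29% of all genes), the median was -0.29 (against -0.02), and 81 of 107 fold changes were below 0. Without aKO 2, 29 fell and 5 rose, against 9.99% and 9.21% of all genes. In the replication list 4 of 34 fell and 1 rose, with a median of -0.21, and without aKO 2, 9 fell and 1 rose. Pola1, the catalytic subunit of the polymerase that starts each new strand, stood at 0.10, 0.06, -0.02 and -0.03 on controls and at -0.61, -0.63, -0.39 and -0.61 on Senp2-aKO arrays. Its groups were parted by a gap, and it fell to 66.5% of control (log2 fold change -0.59, 95% interval -0.79 to -0.38, limma adjusted p = 0.00802). Gmnn, geminin, which blocks a second round of licensing, fell by 0.59 on the log2 scale (SE 0.10, adjusted p = 0.0130), Chaf1a, a chromatin assembly factor, by 0.73 (SE 0.16), and Rfc1, the large subunit of the clamp loader, by 0.34 (SE 0.08). With normexp Gmnn gave -0.30 and Chaf1a -0.48, and both passed. Rfc4, a small subunit of the same loader, rose (0.59, SE 0.11, adjusted p = 0.0132). The calls of Pola1, Gmnn and Rfc4 held in each of the 8 omissions of 1 array, whereas Chaf1a did not pass when control 1, 3 or 4 or aKO 1 or 4 was left out, nor Rfc1 when any control or aKO 4 was (adjusted p from 0.0551 to 0.0837). With the macrophage covariate 4 of the 20 calls over all these lists held, those of Gmnn, Pola1, Rbl1 and E2f7. Among the others, Rfc1 gave -0.33, Rfc4 0.57, Ncapd2 -0.47, Cdkn2b -1.19, Myc 1.25, Cdca8 -0.77 and Spc24 -0.73.

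In the mitosis list the median was -0.53, and 7 of 34 genes fell and 0 rose, against 7.12% and 7.29% of all genes. Without aKO 2, 14 fell and 0 rose, against 9.99% and 9.21%. The lowest of the called values were those of Cdca8 (borealin, of the chromosomal passenger complex) at -0.93 (SE 0.23, limma adjusted p = 0.0331) and of Spc24, a subunit of the kinetochore, at -0.92 (SE 0.23, adjusted p = 0.0327). Ect2, which sets the cleavage furrow, fell by 0.76 on the log2 scale (SE 0.16, adjusted p = 0.0189), and the condensin subunits Smc2 and Ncapd2 by 0.74 and 0.51. Incenp, the scaffold of the passenger complex, fell by 0.51 (SE 0.14) and Zwilch, a kinetochore protein, by 0.64 (SE 0.17). With normexp Spc24 (-0.34, adjusted p = 0.0677) and Zwilch (-0.38, adjusted p = 0.0503) did not pass, and Ect2 passed at -0.33 (adjusted p = 0.0497). The calls of Ect2 and Smc2 ended, among omissions of 1 array, only without control 4 (adjusted p = 0.0514) and control 1 (adjusted p = 0.0542), while those of Cdca8, Spc24, Ncapd2, Incenp and Zwilch ended in 5 to 7 of the 8 omissions (adjusted p from 0.0566 to 0.104). Each of these 5 was lost without control 1, control 3, control 4 or aKO 1, and further losses came without control 2 (Ncapd2, Incenp and Zwilch), aKO 2 (Zwilch), aKO 3 (Incenp and Zwilch) and aKO 4 (Cdca8, Spc24, Ncapd2 and Incenp).

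Of the 25 genes that act as brakes of the cycle, 2 rose and 3 fell, shares near the 7.29% and 7.12% of all genes. Without aKO 2, 3 rose and 4 fell, against 9.21% and 9.99% of all genes. Cdkn1c then rose (0.68, limma adjusted p = 0.034) and Cdkn2a fell (-1.74, adjusted p = 0.0152). On all arrays they gave 0.58 (adjusted p = 0.0628) and -0.96 (adjusted p = 0.386). Cdkn1a, the p21 inhibitor of cyclin-dependent kinases, stood at 3.22, 3.54, 2.92 and 2.99 on controls and at 3.59, 4.10, 4.31 and 4.52 on Senp2-aKO arrays, with no overlap, and rose 1.95-fold (95% interval 1.37 to 2.76) at a limma adjusted p of 0.026. Cdkn2b, the p15 inhibitor of CDK4 and CDK6, lay at 2.33 to 2.41 on the controls and at 0.94, 0.42, 1.87 and 1.39 on Senp2-aKO arrays, a wide spread below a tight control group, and fell 2.32-fold (log2 fold change -1.21, 95% interval -1.84 to -0.58, limma adjusted p = 0.0251). Rbl1, the retinoblastoma relative p107 and itself a target of E2F, fell by 0.78 on the log2 scale (SE 0.15, adjusted p = 0.0156), and Lin9, a subunit of the MuvB complex that binds the CHR element, by 0.44 (SE 0.10; -0.28 with normexp). Btg1, an antiproliferative gene, rose by its brightest probe (0.50, SE 0.13), but the mean of its probes gave -0.05. The Rbl1 call held in each omission of 1 array, but ended with the mean of probes (-0.44, adjusted p = 0.111). Cdkn1a did not pass when control 1, 3 or 4 or aKO 4 was left out, nor Cdkn2b when any control or aKO 1 was (adjusted p from 0.0591 to 0.0737), and the calls of Lin9 and Btg1 ended in 7 omissions (all but aKO 2; 0.0554 to 0.0808) and 5 (any control or aKO 4; 0.0567 to 0.0951).

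Of 14 measured drivers of G1, 2 rose and 1 fell, against 7.29% and 7.12% of all genes. Without aKO 2, 1 rose and 2 fell, against 9.21% and 9.99% of all genes. E2f2 then fell (-0.74, limma adjusted p = 0.00738), where on all arrays it gave -0.31 (adjusted p = 0.614). Myc, a growth factor-responsive activator, rose 2.45-fold (95% interval 1.47 to 4.07) at a limma adjusted p of 0.0335, with all Senp2-aKO arrays above all controls. E2f7, which belongs to the E2F family and represses its targets rather than driving them, rose (0.93, SE 0.21, adjusted p = 0.0256; 0.45 with the mean of its probes, adjusted p = 0.0308), and Cks1b, a subunit of cyclin-dependent kinases, fell by 0.47 on the log2 scale (SE 0.13, adjusted p = 0.0445). The call of Myc ended without any control, aKO 2 or aKO 4, that of E2f7 without control 1, 2 or 4 or aKO 4, and that of Cks1b without aKO 1, aKO 4 or any control (adjusted p from 0.0527 to 0.116). Cdkn1a, E2f7 and Myc were among 7 of the 107 other genes that were higher on every Senp2-aKO array than on any control, against 11.2% of all genes. The means of the skeletal muscle, adipose progenitor and mammary epithelium lists were also higher on every Senp2-aKO array. The part of muscle, progenitors and mammary epithelium in these 3 genes was not tested, nor was their variation within a group compared.

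**Figure D4:**
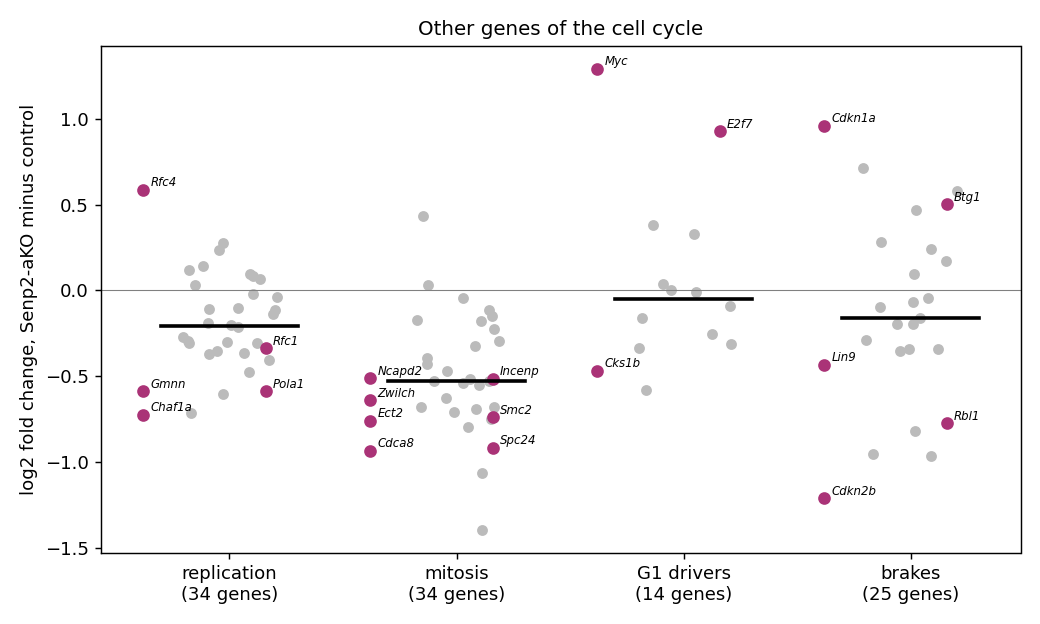
Log2 fold change (Senp2-aKO minus control) of 107 other cell cycle genes in 4 lists; each point is a gene, coloured and named where it passed limma at an adjusted p under 0.05, and black bars are medians. The mitosis list lies lowest, with a median of -0.53 and 7 genes that fell, and the brakes hold called genes on both sides of 0.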

How the data were processed

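RNA of 8 iWAT samples was labelled with Cy3 and read on 1-colour Agilent arrays. The authors extracted the spots with Agilent Feature Extraction 11.5.1, according to the submitters' processing notes. The deposited processed signals are intensity values whose 75th percentile differs between arrays (324.5 to 445.9), and the deposited flags (unit other) are 0 or 1 per spot. All 8 arrays were on 1 slide in 1 scan. The deposited matrix was not used, because its 8 columns match no label.

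From these files the log2 processed signal minus the 75th percentile of its array was computed, and spots of a probe were averaged without outlier spots. A probe was kept when 4 or more arrays flagged it as well above background (30508 of 55681). Names come from RefSeq accessions (GRCm38.p6 table; 27656 probes named, 28025 not), since these files hold no column of gene names. The brightest kept probe stood for a gene, which gave 14730 genes. The test of Senp2-aKO against control used limma (version 3.58.1) under R (version 4.3.3), with Benjamini-Hochberg adjustment over all genes and a threshold of 0.05. The number of arrays limits the precision, and no spot was saturated. The test was checked on simulated data, in which both groups had the spread of the controls and genes varied independently. The check does not cover genes that vary together, as these do, or a spread that differs between the groups.

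The genes, lists and tests were chosen with earlier results of these data known. All 39 genes are described, with the genes of the related lists that passed. Genes of other lists are named as markers only. Alternatives were quantile and median scaling, normexp (offset 50), no filter or a filter on all 8 arrays, the mean of probes, covariates, array weights, a replicate block and leaving out each array.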

Additional observations from a re-analysis of the deposited data

Results flagged for a closer look

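Among 114 groups of 4 arrays examined, 1 array stood far from the others of its group in 4 cases. Chance alone gives about 1 in 20. The values are the gap to the nearest array as a share of the group's range. Pola1 on aKO 3 was the highest of its group (0.922), Zwilch was highest on control 3 (0.911) and on aKO 4 (0.885), and Ect2 on aKO 1 was the lowest of its group (0.858).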

How the results depend on the processing

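No setting run gave a member of the set that rose, and the median fold change of the set stayed below 0, from -0.58 to -0.32 over the omissions of 1 array and at -0.28 to -0.56 in the other settings. Counts of calls changed. The number of the 39 genes that fell, 3 as reported, was 5 with median scaling, 5 with normexp, 1 with no filter on background, 8 with the B lymphocyte covariate, 0 with the macrophage covariate, 10 with array weights, and 0 to 7 over the omissions. Over all genes, 1074 rose and 1049 fell as reported. With median scaling the split was 772 to 1312 (37.0% higher, against 50.6%). With no filter 689 of 20915 genes fell, in place of 1049 of 14730. With the B lymphocyte covariate 1637 fell, and with the macrophage covariate 461 rose and 290 fell. With array weights 1831 rose and 1932 fell, and over the omissions 434 to 1356 rose and 280 to 1472 fell. Of the related genes (5 rose, 15 fell), 3 rose with no filter, 25 fell with the B lymphocyte covariate, 1 rose and 3 fell with the macrophage covariate, 32 fell with array weights, and over the omissions 1 to 5 rose and 4 to 29 fell. Signs turned mostly for genes near 0, but also for Kif11 (-0.51 as reported) and Btg1 (0.50 as reported). With normexp these were Tyms (0.032), Bub1b (0.10), Kif11 (0.13) and Kif23 (0.077), with quantile normalisation Mcm4 (0.022), with median scaling the Mcm3 log2 fold change (-0.0664), with the B lymphocyte covariate Mcm3 (-0.053), with the macrophage covariate Mcm4 (0.0080) and Bub1b (0.013), with array weights Ccnd3 (0.037) and Mcm3 (-0.15), and with the mean of probes Btg1 (-0.049). Over the omissions Mcm3 ran from -0.19 to 0.12, Mcm4 from -0.16 to 0.10, Bub1b from -0.50 to 0.11, Ccnd3 from -0.14 to 0.042 and Tyms from -0.38 to 0.043. The cause of these changes was not tested. The labels share replicate numbers between the groups, and deviations of same-numbered arrays correlated at -0.02, -0.08, 0.14 and 0.11, so the numbers were not taken as pairs. With the replicate block 569 genes fell, 1 related gene rose and 3 members fell, Ccnd1, Cdk1 and Ube2c. Fold changes of probes near the background, such as those of Kif11, Bub1 and Top2a, which were not well above background on 1 Senp2-aKO array, are limited by their signal over background.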
